A study of Mus musculus with 18 samples.

Results

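The genes described here are the 10 adenylyl cyclase isoforms of the mouse, Adcy1 to Adcy10, taken by gene symbol from the 45151 symbols that every expression table of the series holds. All 10 symbols were listed for all 18 samples, although Adcy1, Adcy2 and Adcy8 had 0 reads in some of them. The samples were inguinal white adipocytes (iWAT, n = 6), epididymal white adipocytes (eWAT, n = 6) and brown adipose tissue (BAT, n = 6). All came from wild type male C57BL/6J mice aged 16 weeks that ate regular chow, and the strain field of the labels reads C57BL/6. The iWAT and eWAT samples were mature adipocytes that floated after collagenase digestion, whereas BAT was whole frozen tissue, although its cell type field reads BAT adipocytes. White depot and digestion therefore cannot be told apart in any comparison with BAT. The sequencing was done to catalogue receptors that couple to Gs, and the adenylyl cyclases are the effectors of that G protein.

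Adenylyl cyclases make cyclic AMP from ATP. Adcy1 to Adcy9 encode membrane enzymes that Gs switches on, and in fat cells the cyclic AMP made after β-adrenergic stimulation drives lipolysis through protein kinase A and, in brown fat, heat production. The isoforms differ in what else they sense. Adcy1, Adcy3 and Adcy8 encode enzymes that calcium and calmodulin can stimulate, Adcy2, Adcy4 and Adcy7 enzymes that G protein βγ subunits can stimulate together with Gs, and Adcy5 and Adcy6 enzymes that calcium and Gi inhibit. The Adcy9 product responds poorly to forskolin, the plant compound that activates the other membrane enzymes, and Adcy10 encodes the soluble enzyme that bicarbonate activates.

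Levels are given in RPKM, the reads on a row scaled to its length and to the total reads of the sample, which allows genes to be compared. A row is 1 line of a table. In iWAT and BAT it is all transcripts of a gene merged, and in eWAT it is the most-read single transcript, because the eWAT tables list transcripts (between 4 and 11 for each isoform). No isoform had the same main row in both kinds of table, so part of any difference between eWAT and another depot can be a difference of rows, and depot and row cannot be told apart there. The reads behind the RPKM values ranged from 22929576 to 34512470 per sample. Summed RPKM of 4 adipocyte markers lay at 3091 to 4799 for iWAT, at 2639 to 5906 for eWAT and at 721 to 938 for BAT. That of 4 brown adipocyte markers, Ucp1 among them, was 18.3 to 28.3 in iWAT, 1.49 to 4.17 in eWAT and 1744 to 2321 in BAT, so the depots carried the markers of their labels. Samples are named by the number in their titles. Some stood apart in markers of other cells or tissue. Summed RPKM of 5 skeletal muscle markers was 1340 in BAT sample 12 and at most 119 in the other BAT samples. That of 6 macrophage markers was 2013 in eWAT sample 15 and 143 to 483 in the other eWAT samples. That of 5 epididymis markers was 76.2 in eWAT sample 14 and 71.0 in eWAT sample 15. That of 6 endothelial markers was 308 in iWAT sample 14 and at most 135 in the other iWAT samples.

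White adipocytes carried mainly Adcy5 and Adcy6 transcripts, and BAT mainly Adcy6 and Adcy3. Summed over the 10 isoforms, RPKM amounted to 60.9 ± 9.30 (iWAT), 61.0 ± 5.32 (eWAT) and 43.2 ± 6.74 (BAT; mean ± SD, n = 6, as throughout). Of that sum, Adcy5 made up 45.1% ± 4.74 in iWAT, 42.7% ± 8.01 in eWAT and 1.53% ± 0.573 in BAT. Adcy6 made up 39.4% ± 3.81 in iWAT, 34.1% ± 6.93 in eWAT and 52.1% ± 2.57 in BAT. Adcy3 made up 8.23% ± 1.56 in iWAT, 5.43% ± 2.07 in eWAT and 30.1% ± 3.53 in BAT. In every BAT sample the shares of Adcy3 and Adcy5 lay outside the range of both white depots.

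**Figure D1:**
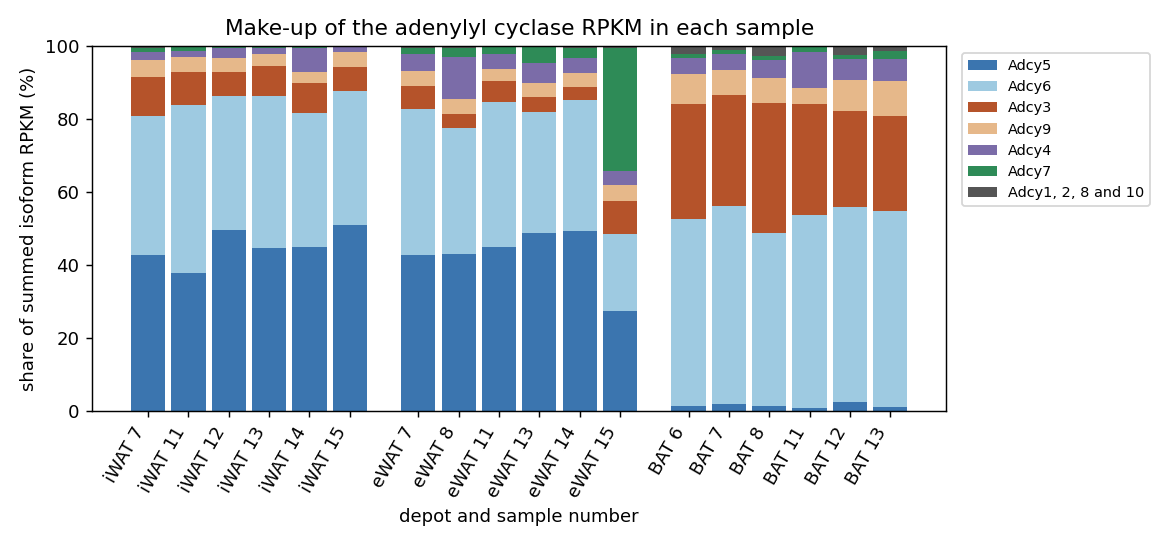
Stacked bars give the share of the summed adenylyl cyclase RPKM, in percent, that each isoform made up in each of the 18 samples, labelled by depot and sample number. Adcy5 fills 27.4% to 50.9% of the white adipocyte bars and at most 2.37% of the BAT bars, where Adcy3 fills 26.1% to 35.5%; in eWAT sample 15, Adcy7 fills 33.7%.

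The order of the levels differed between the depots. In iWAT it ran Adcy5, Adcy6, Adcy3, Adcy9, Adcy4, Adcy7, Adcy10, Adcy1, Adcy2, Adcy8 by mean RPKM. The ranges of the first pair overlapped, with Adcy5 above Adcy6 in 5 of 6 samples, and those of Adcy9 and Adcy4, of Adcy7 and Adcy10, and of Adcy1, Adcy2 and Adcy8 overlapped too. In eWAT the order was Adcy5, Adcy6, Adcy7, Adcy4, Adcy3, Adcy9, Adcy10, Adcy8, Adcy2, Adcy1, and the only neighbours with separate ranges were Adcy9 and Adcy10. Adcy5 was above Adcy6 in 6 of 6 eWAT samples, and Adcy7 took its rank from 1 sample, the others having it below Adcy4. In BAT the order was Adcy6, Adcy3, Adcy9, Adcy4, Adcy5, Adcy10, Adcy7, Adcy2, Adcy1, Adcy8. There Adcy6, Adcy3 and Adcy9 were separate from each other, Adcy9 overlapped with Adcy4, and the ranges of Adcy5, Adcy10 and Adcy7 overlapped with one another. A mean of at least 1 RPKM was reached by 5 isoforms in iWAT, 6 in eWAT and 4 in BAT. Lowering that minimum to 0.5 RPKM brought the BAT number to 7, since Adcy5, Adcy7 and Adcy10 lay between both limits.

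**Figure D2:**
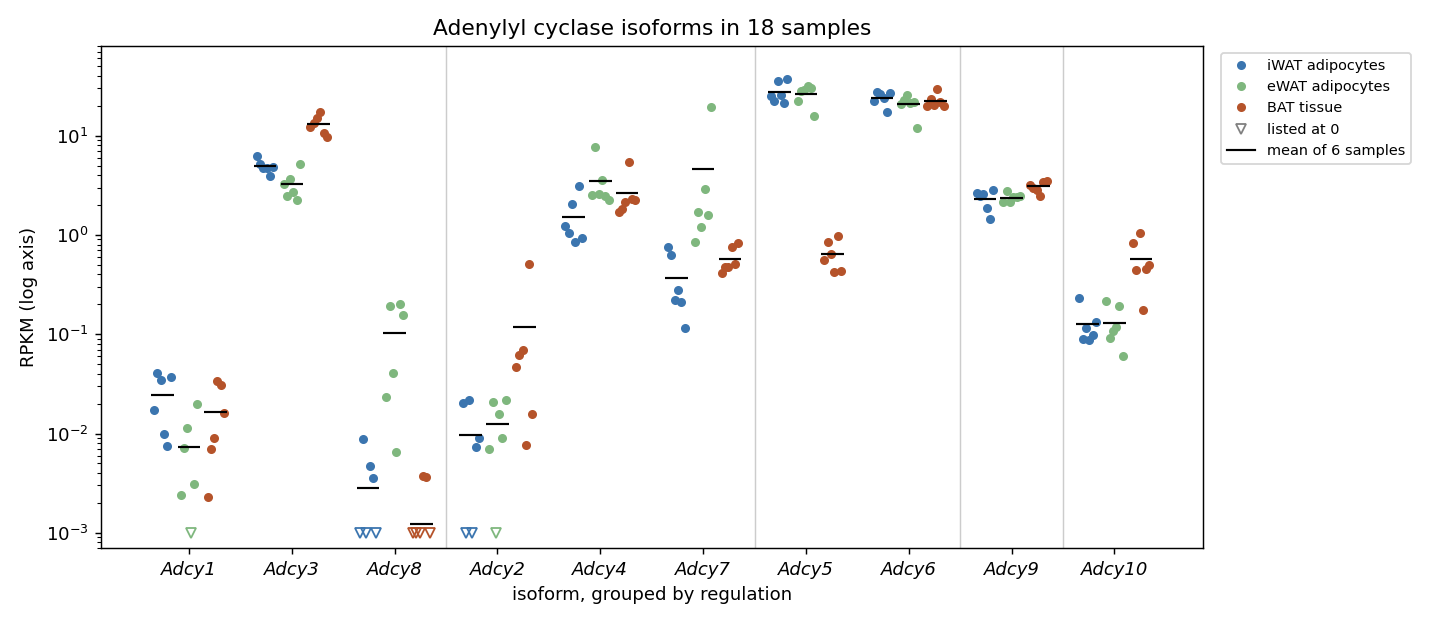
Each point is the RPKM of 1 isoform in 1 sample on a log axis, with the mean of 6 samples as a black line, open triangles at the bottom for samples listed at 0, and grey lines between the regulatory groups. Adcy5 sits at 15.6 to 36.8 in both white depots and at 0.421 to 0.967 in BAT, while Adcy6 stays between 12.02 and 29.7 in all samples.

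Depots were compared with edgeR's quasi-likelihood test with Benjamini-Hochberg adjustment over all genes tested. The log2 fold changes it gives are relative to the bulk of genes, because TMM factors set the typical gene to no change, whereas RPKM values are not rescaled. Without the factors the median gene was shifted by 0.27 (log2) in iWAT against BAT and by 0.81 in eWAT against BAT. In iWAT against eWAT the shift was -0.40. An isoform with similar RPKM in 2 depots can therefore have a negative fitted difference against BAT, or a positive one in iWAT against eWAT. Of the 10 isoforms, 7 passed the read filter, while Adcy1, Adcy2 and Adcy8 had too few reads and were left out of the main test. In iWAT against BAT, 5 of the 7 tested isoforms passed an adjusted p of 0.05, 1 of them higher in iWAT and 4 higher in BAT. In that comparison 67.6% of 19733 genes passed, 34% higher in iWAT and 33.6% higher in BAT, so the number of isoforms that passed was near the background. The median log2 fold change was -0.89 over the tested isoforms and 0.01 over all genes. In eWAT against BAT, 6 of 7 passed, 2 higher in eWAT and 4 higher in BAT, beside 73.9% of 18383 genes, 39.9% higher in eWAT and 34% higher in BAT. The medians were -0.84 and 0.08. In iWAT against eWAT, 5 of 7 passed, 4 higher in iWAT and 1 higher in eWAT, beside 52.5% of genes, 24.2% higher in iWAT and 28.3% higher in eWAT. The medians were 0.39 and 0.04. On rows that are the same in all tables, 12.9% of 5733 passed in iWAT against eWAT. Without TMM factors, 65.8% of the genes that passed were higher in iWAT than in BAT, 78.8% higher in eWAT than in BAT and 9.78% higher in iWAT than in eWAT. The first 2 comparisons share the BAT samples. In these bulk samples, fewer cells of a type and less RNA per cell cannot be told apart, and nothing in the labels says that same-depot samples came from separate mice, so p-values measure the spread between samples.

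**Figure D3:**
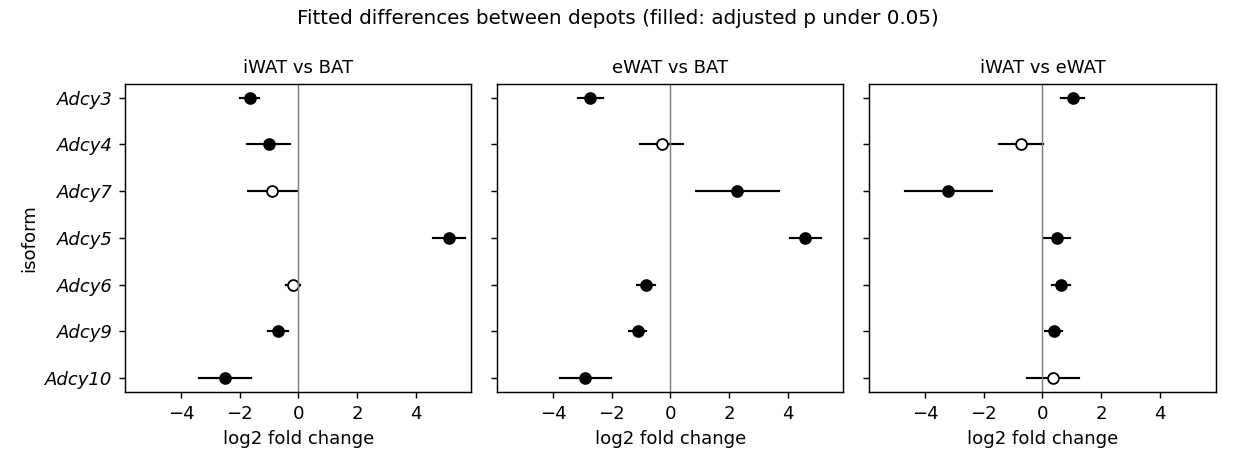
Points give the fitted log2 fold change of the 7 tested isoforms, first depot minus second, with the 95% confidence interval as a line, for the 3 comparisons. Adcy5 lies at 5.14 and 4.60 against BAT, Adcy3 and Adcy10 lie left of 0 in both comparisons with BAT, and filled points mark an adjusted p under 0.05.

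Adcy5 and Adcy6 encode the closely related pair that calcium and Gi inhibit, and they behaved unalike. Adcy5 (chr16:35154963-35305824, + strand, mm9, merged row of 26 exons) ranged from 21.5 to 36.8 RPKM in iWAT with a median of 25.1. In eWAT it ranged from 15.6 to 31.7 with a median of 28.6, and in BAT from 0.421 to 0.967 with a median of 0.602. Every white adipocyte sample was above every BAT sample, and the lowest white value was eWAT sample 15. The fitted difference was 5.14 ± 0.25 (log2, SE) in iWAT against BAT, or 35.3-fold (edgeR's quasi-likelihood test, adjusted p = 5.28e-10), and 1.51% of genes had a larger one in either direction. In eWAT against BAT it was 4.60 ± 0.25 (adjusted p = 6.81e-12), with 3.06% of genes beyond it. The BAT reads were not few, since 104 to 245 reads per sample lay on the row. No alternative changed the call of Adcy5 against BAT. Between the white depots the fitted difference was 0.51 ± 0.21 with an adjusted p of 0.0490, and it lost the call under 17 of 26 alternatives, with adjusted p-values from 0.0106 to 0.788.

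Adcy6 (chr15:98420409-98438064, - strand, 21 exons) had similar mean RPKM in the 3 depots, at 23.9 ± 3.70 in iWAT, 20.8 ± 4.58 in eWAT and 22.5 ± 3.78 in BAT. It ranged from 17.4 to 27.2 RPKM in iWAT with a median of 24.9, from 12.02 to 25.5 in eWAT with a median of 21.7, and from 19.9 to 29.7 in BAT with a median of 21.0. All 3 ranges overlapped. In iWAT against BAT the fitted difference was -0.18 with a 95% confidence interval of -0.41 to 0.06 (edgeR, adjusted p = 0.173), and with upper-quartile factors it passed (-0.30, adjusted p = 0.0223). In eWAT against BAT it was -0.84 ± 0.14 (adjusted p = 3.38e-05), and in iWAT against eWAT 0.64 ± 0.14 (adjusted p = 0.00112). Both of these rested on the rescaling: without TMM factors they were -0.12 (adjusted p = 0.502) and 0.20 (adjusted p = 0.303), and no call was made, nor was the second called without the length offset (0.37, adjusted p = 0.0545).

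The ratio of Adcy5 to Adcy6 within a sample does not depend on the scaling of samples. It spanned 0.820 to 1.38 in iWAT samples, 1.07 to 1.47 in eWAT samples and 0.0142 to 0.0442 in BAT samples, so the white and brown ranges were far apart. The ratio of Adcy3 to Adcy6 spanned 0.179 to 0.284 in iWAT samples, 0.104 to 0.431 in eWAT samples and 0.485 to 0.750 in BAT samples, and again BAT did not overlap with the white depots. The highest white ratio of Adcy3 to Adcy6, 0.431, lay close to the lowest BAT ratio. It came from eWAT sample 15, which had the highest Adcy3 (5.18 RPKM) and the lowest Adcy6 (12.02 RPKM) of its depot. That sample also had the most macrophage marker RPKM.

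Adcy3, Adcy1 and Adcy8 make up the group that calcium and calmodulin can stimulate, and Adcy3 was its one abundant member. Adcy3 (chr12:4133103-4213525, + strand, 23 exons) ranged from 9.70 to 17.1 RPKM in BAT with a median of 12.8. In iWAT it ranged from 3.92 to 6.30 with a median of 4.75, and in eWAT from 2.27 to 5.18 with a median of 2.98. The 5.18 was eWAT sample 15, and the other eWAT samples reached at most 3.67. Every BAT sample was above every white adipocyte sample, whereas the white depots overlapped. The fitted difference was -1.66 ± 0.15 in iWAT against BAT (edgeR's quasi-likelihood test, adjusted p = 2.27e-07) and -2.72 ± 0.20 in eWAT against BAT (adjusted p = 5.28e-10). In iWAT against eWAT it was 1.03 ± 0.19 (adjusted p = 0.000199). All 3 calls were kept under every alternative tried, with differences between iWAT and eWAT from 0.50 to 1.22.

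The last exons of Adcy3 lie opposite Cenpo, a centromere protein gene on the other strand. The overlap is 1380 bases, or 22.1% of the exonic bases of Adcy3, and with libraries not stated to keep strand the reads there cannot be assigned to either gene. Cenpo was counted at 380 to 567 reads per sample in iWAT and 937 to 1804 in BAT. Its count was thus higher in the same depot, but can include reads of Adcy3 from the shared stretch. When all Cenpo reads were taken off the Adcy3 count, 335 to 519 reads per sample remained in iWAT and 917 to 1563 in BAT, and the groups still did not overlap. The fitted difference was then -1.70 (edgeR, adjusted p = 3.52e-06), an alternative chosen after seeing the data. It was run for iWAT against BAT only, and the comparisons of Adcy3 with eWAT were not checked for Cenpo reads.

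Adcy8 and Adcy1, which are best known from neurons, were near the limit of detection. Adcy8 (chr15:64530597-64753858) had 4 reads in all in iWAT, with 3 samples at 0, and 2 reads in all in BAT, with 4 samples at 0. In BAT, 3 reads correspond to 0.00989 to 0.0128 RPKM, the floor chosen here, and a lower level can go undetected at this depth. Such limits cover counting error only. In eWAT it had 97 reads in all, on a transcript row of 5039 bases against the merged row of 8788. These were unevenly spread, with 33, 27 and 26 reads in samples 8, 14 and 15 and 1 to 6 in the others. Epididymis markers, which moved with 2 of these 3 samples, summed to 0.00848 RPKM in eWAT sample 8, and their part in the reads was not tested. Adcy1 (chr11:6963492-7078509) had 3 to 14 reads per sample in iWAT, 0 to 8 in eWAT and 1 to 13 in BAT, and the ranges overlapped throughout.

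For the 3 tested isoforms whose row starts at most 13 bases from a RefSeq transcript start, the 250 bases before that start are printed, because they include the isoform with the largest difference towards white adipocytes (Adcy5) and the one with the largest difference towards BAT in iWAT against BAT (Adcy10), beside Adcy9. Sequences are from RefSeq (promoter table on GRCm38.p6) and each was found once, letter for letter, on its chromosome in mm9. They are Adcy5 at chr16:35154700-35154949 (+ strand), Adcy9 at chr16:4420499-4420748 (- strand) and Adcy10 at chr1:167415064-167415313 (+ strand), each written 5′ to 3′ on the strand of the gene. Capitals mark GGGCGG (the GC box) and TGACG (the cyclic AMP response half-site) on either strand.
Adcy5: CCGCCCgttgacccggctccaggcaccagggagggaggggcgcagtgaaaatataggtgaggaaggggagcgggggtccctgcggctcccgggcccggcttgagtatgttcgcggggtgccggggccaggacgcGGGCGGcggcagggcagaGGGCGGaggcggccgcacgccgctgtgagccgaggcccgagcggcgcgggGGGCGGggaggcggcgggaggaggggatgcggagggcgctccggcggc
Adcy9: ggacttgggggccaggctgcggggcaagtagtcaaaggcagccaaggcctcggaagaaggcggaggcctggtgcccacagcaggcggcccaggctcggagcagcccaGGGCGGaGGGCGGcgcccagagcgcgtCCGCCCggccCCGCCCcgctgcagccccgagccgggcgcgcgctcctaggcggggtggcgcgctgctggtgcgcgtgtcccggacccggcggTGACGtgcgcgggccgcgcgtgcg
Adcy10: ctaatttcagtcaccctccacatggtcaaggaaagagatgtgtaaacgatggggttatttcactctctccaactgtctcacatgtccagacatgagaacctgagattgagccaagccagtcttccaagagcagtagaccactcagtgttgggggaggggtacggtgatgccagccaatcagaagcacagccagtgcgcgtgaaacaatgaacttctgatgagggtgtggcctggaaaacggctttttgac
The Adcy5 and Adcy9 stretches each hold 4 GC boxes, and Adcy10 holds none. Of 32851 such stretches over all genes, 32.7% hold at least 1. Adcy9 holds 1 TGACG, which 17.8% of stretches have, and the other 2 hold none. The full response element TGACGTCA, which contains TGACG, was in none of the 3 and in 1.55% of all. The letters AGGTCA (14% of all stretches), TCAAGGTCA (0.387%, an extended form of the former), TTGCNNAA (9.56%) and TATAAA (12.4%) were in none of the 3 either. CpG pairs numbered 32 in Adcy5, 34 in Adcy9 and 5 in Adcy10, beside a median of 6 over all stretches.

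Adcy4, Adcy7 and Adcy2 encode the enzymes that βγ subunits can stimulate, and each had a depot in which 1 sample stood far above the others. Adcy4 (chr14:56387895-56402879, - strand) ranged from 0.844 to 3.08 RPKM in iWAT with a median of 1.14, from 2.26 to 7.65 in eWAT with a median of 2.57, and from 1.72 to 5.47 in BAT with a median of 2.19. All 3 ranges overlapped, and the highest values were iWAT sample 14, eWAT sample 8 and BAT sample 11. In each depot that sample was also the one with the highest summed RPKM of 6 endothelial markers, at 308, 323 and 118. The summed level of these markers spanned 54.7 to 308 over the iWAT samples, 142 to 323 over the eWAT samples and 48.6 to 118 over the BAT samples. All 6 were detected in every depot. Summed RPKM of 4 mural markers was also highest in iWAT sample 14 (105) and eWAT sample 8 (183.5). In BAT it was highest in sample 13 (105), with sample 11 next at 97.2. The part of endothelial or mural cells in the Adcy4 level was not tested.

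In iWAT against BAT the fitted difference of Adcy4 was -1.01 ± 0.34 (edgeR's quasi-likelihood test, adjusted p = 0.0174), and it was not called without TMM factors (-0.76, adjusted p = 0.0700) or with limma on log2(RPKM + 1) (-0.51, adjusted p = 0.0656). In eWAT against BAT it was -0.30 with a 95% confidence interval of -1.04 to 0.44 (adjusted p = 0.450). In iWAT against eWAT it was -0.73 with an interval of -1.47 to 0.02 (adjusted p = 0.0931), and 5 of 26 alternatives gave a call. These were the fits without TMM factors (-1.19, adjusted p = 0.0135), with limma at a pseudocount of 0.1 (adjusted p = 0.00768) or 1 (adjusted p = 0.0143), with the eWAT transcript closest in length (adjusted p = 0.0464) and without iWAT sample 14 (-1.07, adjusted p = 0.0118).

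Adcy7 (chr8:90796302-90853861, + strand), a form abundant in blood and immune cells, ranged from 0.117 to 0.764 RPKM in iWAT with a median of 0.249. In BAT it ranged from 0.416 to 0.823 with a median of 0.494, and in eWAT from 0.844 to 19.2 with a median of 1.65. All eWAT samples were above all others, and eWAT sample 15 was far above the rest of its depot, which ended at 2.93. Beside this, summed RPKM of 6 macrophage markers spanned 27.8 to 144 over the iWAT samples, 143 to 2013 over the eWAT samples and 21.2 to 49.0 over the BAT samples. The sample with the most macrophage marker RPKM was also the sample with the most Adcy7 in each depot, namely iWAT sample 7, eWAT sample 15 and BAT sample 13. Of 100 pairs of an isoform and a marker list detected in every depot, 2 shared the highest sample in all 3 depots, and these were Adcy7 with the macrophage list and Adcy4 with the endothelial list. The pairs include isoforms whose highest sample rests on very few reads. For Adcy8 these were 2 reads in iWAT and 1 in BAT, and for Adcy2 3 in iWAT. The part of macrophages in the Adcy7 level was not tested.

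**Figure D4:**
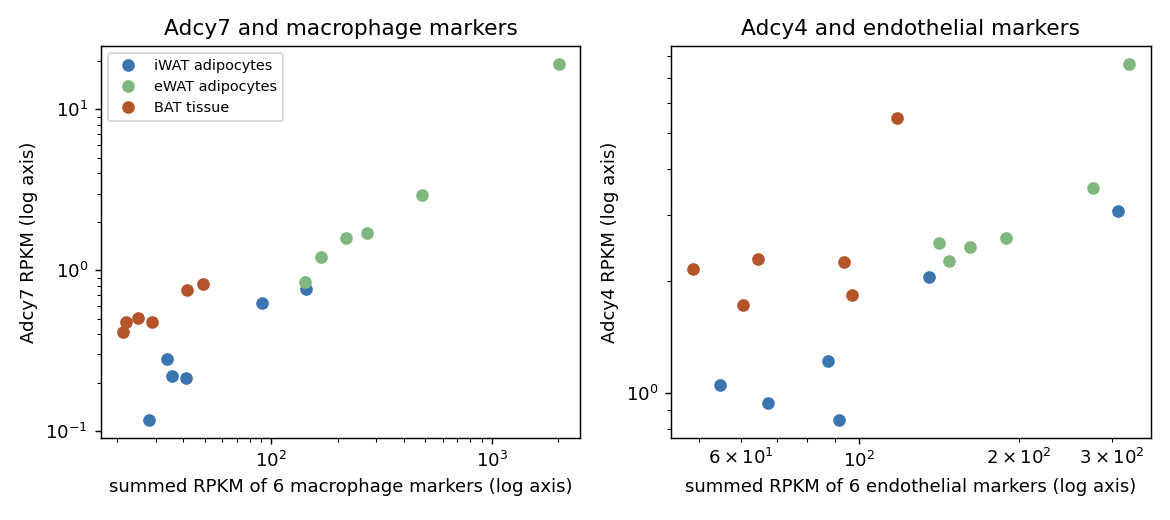
Each point is 1 sample: on the left, Adcy7 RPKM against the summed RPKM of 6 macrophage markers, and on the right, Adcy4 RPKM against that of 6 endothelial markers, all on log axes and coloured by depot. The eWAT sample with the most macrophage marker RPKM, 2013, has the most Adcy7, 19.2, and in each depot the sample with the most endothelial marker RPKM has the most Adcy4.

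The fitted difference of Adcy7 was 2.29 ± 0.68 in eWAT against BAT (edgeR, adjusted p = 0.00522). Without eWAT sample 15 it was 0.80 and no longer passed (adjusted p = 0.0698), and without eWAT samples 14 and 15 and BAT sample 12 it was 0.74 (adjusted p = 0.150). In iWAT against eWAT it was -3.20 ± 0.71 (adjusted p = 0.00104), and the call was kept under every alternative, although the size came down to -1.71 without those 3 samples (adjusted p = 0.00438). In iWAT against BAT it was -0.89 with a 95% confidence interval of -1.73 to -0.06 (adjusted p = 0.0555), and it passed without iWAT sample 7 (-1.24, adjusted p = 0.00730) or without iWAT sample 11 (-1.10, adjusted p = 0.0251), the samples with the most Adcy7 in that depot. It also passed with DESeq2 (adjusted p = 0.0344) and with upper-quartile factors (adjusted p = 0.0343).

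Adcy2 (chr13:68758920-69138419, - strand), best known from brain and muscle, had 7 reads in all in iWAT and 10 in eWAT. In BAT it had 95, of which 68 came from sample 12, the BAT sample with the high skeletal muscle markers, and 1 to 9 came from each of the other 5. In RPKM that sample stood at 0.510, and the BAT median was 0.0543. The part of muscle in these reads was not tested.

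Adcy9 encodes the enzyme that forskolin activates poorly. On its main row (chr16:4287529-4420498, - strand, 11 exons) it ranged from 1.46 to 2.85 RPKM in iWAT with a median of 2.52, from 2.15 to 2.74 in eWAT with a median of 2.39, and from 2.48 to 3.51 in BAT with a median of 3.10. The ranges overlapped. The fitted difference was -0.69 ± 0.16 in iWAT against BAT (edgeR's quasi-likelihood test, adjusted p = 0.00143) and -1.11 ± 0.14 in eWAT against BAT (adjusted p = 9.91e-07). Both calls were kept under every alternative, but their size depended on the rescaling. Without TMM factors the differences were -0.42 (edgeR, adjusted p = 0.0242) and -0.37 (adjusted p = 0.0202). Between the white depots the fitted difference was 0.39 ± 0.14 (adjusted p = 0.0263), and 11 of 26 alternatives changed that call, with adjusted p-values from 0.00217 to 0.806.

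A second, short row of Adcy9 (chr16:4284889-4286151, 1263 bases) lies beyond the 3′ end of the main row and is the single isoform row that all tables share. On it the depots were further apart: 2.59 to 3.80 RPKM in iWAT and 6.23 to 9.99 in BAT, with no overlap, and a fitted difference of -1.51 ± 0.14 (edgeR, adjusted p = 3.01e-07). In a fit limited to shared rows, it was -1.42 ± 0.15 in iWAT against BAT and -1.46 ± 0.15 in eWAT against BAT. Between iWAT and eWAT it was 0.04 ± 0.15 (adjusted p = 0.897). With both rows of Adcy9 added together, an alternative chosen after seeing the data, iWAT against BAT gave -0.96 (adjusted p = 2.99e-05).

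Adcy10 (chr1:167415314-167506905, + strand, merged row of 38 exons), the gene of the soluble bicarbonate-activated enzyme, was low in every depot. It ranged from 0.177 to 1.05 RPKM in BAT with a median of 0.479. In iWAT it ranged from 0.0883 to 0.230 with a median of 0.107, and in eWAT from 0.0600 to 0.215 with a median of 0.113. All BAT samples except sample 11 were above all white adipocyte samples. Read numbers were 38 to 202 per sample in BAT, 15 to 37 in iWAT and 10 to 37 in eWAT. The fitted difference was -2.50 ± 0.41 in iWAT against BAT (edgeR's quasi-likelihood test, adjusted p = 9.60e-05) and -2.89 ± 0.42 in eWAT against BAT (adjusted p = 5.24e-06). Both calls were kept under every alternative. Between the white depots it was 0.36 with a 95% confidence interval of -0.53 to 1.25 (adjusted p = 0.488).

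The genes around the cyclases were counted from a list of 40, chosen for their place in the cyclic AMP pathway: G protein α subunits, β-adrenergic receptors, regulators and partners of the cyclases, anchoring proteins, cyclic AMP effectors and phosphodiesterases. Of these, 39 were tested. In iWAT against BAT, 17 were higher in iWAT, 16 higher in BAT and 6 did not pass, with a median log2 fold change of 0.10 and beside 67.6% of all genes that passed. In eWAT against BAT the numbers were 16, 13 and 10 (median 0.27), beside 73.9% of all genes. In iWAT against eWAT they were 6, 12 and 21 (median -0.24), beside 52.5% of all genes. Gnas, the gene of Gs α that activates the membrane cyclases, was at 31.7 ± 3.19 RPKM in iWAT and 69.6 ± 6.22 in BAT (log2 fold change -1.40 ± 0.09, edgeR adjusted p = 1.08e-08). In eWAT its most-read transcript was at 125 RPKM, above the BAT mean of 69.6. The fitted log2 fold change against BAT was 0.12 (edgeR adjusted p = 0.302). That value is relative to the bulk of genes, whereas the RPKM values are not rescaled. Both compare a single transcript with a merged row of this long and complex gene.

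Among the G protein genes the largest fitted difference between iWAT and BAT was that of Gnai1. Gnai1, whose product inhibits Adcy5 and Adcy6 enzymes, was at 129 ± 15.03 RPKM in iWAT and 10.9 ± 1.34 in BAT (log2 fold change 3.29 ± 0.12, edgeR adjusted p = 6.38e-11), and at 142 in eWAT (2.97 ± 0.17 against BAT). Of the 7 α subunit genes, 5 were higher in iWAT than in BAT and 2, Gnas and Gnao1, higher in BAT, beside 34% and 33.6% of all genes. By a limit of 1 RPKM in the higher depot, the other genes with the largest differences towards iWAT were the anchor Akap12 (2.17) and the phosphodiesterases Pde7a (1.92) and Pde4b (1.79). Those towards BAT were the β1 receptor gene Adrb1 (-2.95), the phosphodiesterases Pde3a (-2.88) and Pde4a (-2.73), and Rgs2 (-2.48), whose product can inhibit cyclases directly. Adrb3, the main β receptor of mouse fat, was at 93.9 ± 25.99 in iWAT and 71.3 ± 17.0 in BAT (0.14, adjusted p = 0.549).

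Among genes that averaged at least 1 RPKM in the depot where they were higher, those furthest apart in eWAT against BAT were Pde4b (3.86), Gnai1, Akap12 (2.72) and Prkcd (2.61), higher in eWAT, and Adrb1 (-4.44), Pde4a (-2.52), Rgs2 (-2.11) and Pde3a (-1.94), higher in BAT. By the same limit, in iWAT against eWAT they were Gnal (1.65), Adrb1 (1.46), Prkaca (0.83) and Prkar2b (0.58), higher in iWAT, and Prkcd (-2.45), Pde4b (-2.09), Gnas (-1.55) and Cap1 (-0.85), higher in eWAT. Prkcd, a protein kinase C gene, was at 5.57 to 35.9 RPKM in eWAT with a median of 6.32, and its highest value came from sample 15, the sample with the most macrophage marker RPKM, whereas the next was 9.06. In BAT it reached at most 1.60 and in iWAT 2.20, so the eWAT range was apart from both. The part of macrophages in its level was not tested. The fold changes in parentheses are log2 values that passed the test, and those with eWAT compare a transcript with a merged row. They are relative to the bulk of genes, and no values without TMM factors were taken for this list. In RPKM, Prkaca was at 61.4 ± 5.91 in iWAT and 46.7 ± 6.92 in eWAT. Prkar2b was at 234 ± 40.7 RPKM in iWAT and 211 ± 47.3 in eWAT.

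**Figure D5:**
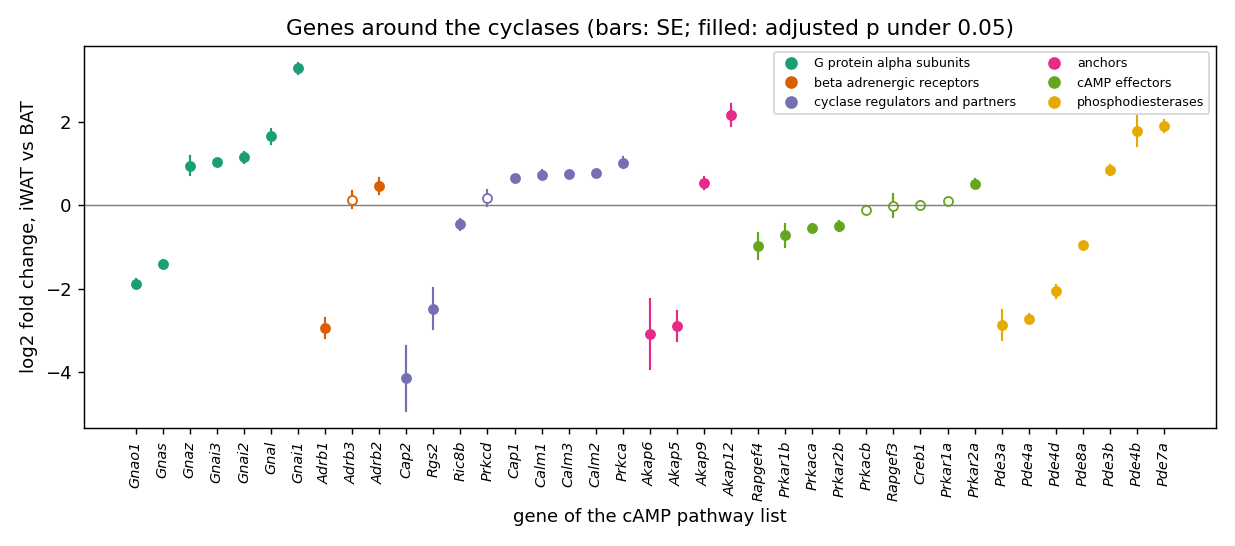
Points give the log2 fold change, iWAT against BAT, of the 39 tested genes of the cyclic AMP pathway list, coloured by role, with the SE as a line and filled where the adjusted p was under 0.05. Among the α subunits Gnai1 stands highest at 3.29 while Gnas lies at -1.40, and the phosphodiesterases split into 3 higher in iWAT and 4 higher in BAT.

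Within depots, the genes that varied most like the pair of most abundant isoforms were sought over the 12 iWAT and BAT samples, as deviations from the depot mean of log2(RPKM + 0.1), among 13630 rows. For Adcy6 the nearest were Zcchc9 (Pearson r 0.96), Stk11 (0.95) and Hsf1 (0.95). For Adcy5 they were Ccdc75 (0.87), Amy1 (0.86) and Zfp503 (0.86). These are the highest of many correlations over samples that also differ in depth, and they are given as a description.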

How the data were processed

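RNA of 18 samples (6 per depot) was sequenced from NEBNext Ultra libraries. The submitters' processing notes name cutadapt 1.16, HISAT2 2.1.0 and mm9, and the methods name the Genomatix Genome Analyzer. The authors deposited, per sample, a read count and an RPKM value for each row, where a row is a merged gene in iWAT and BAT and a single transcript in eWAT. RPKM and count in the deposited tables fitted one total of reads per sample, which is given as the depth.

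The count of each row was tested with edgeR 4.0.16 (R 4.3.3, quasi-likelihood, TMM factors, rows kept from 10 reads in 6 or more samples, Benjamini-Hochberg adjustment, threshold 0.05). iWAT and BAT were fitted on all merged rows of 12 samples. Contrasts with eWAT were fitted on all 18 samples with 1 row per symbol and row length as an offset. limma 3.58.1 on log2(RPKM + 0.1) and log2(RPKM + 1), DESeq2 1.42.0, other factors and filters, other transcript choices, a replicate block and leaving out each sample were alternatives.

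All 10 isoforms are named. From the pathway list are named Gnas, Adrb3 (chosen after its values were seen) and up to 4 genes per direction and comparison with the largest change among those that passed and averaged 1 RPKM or more where higher. The isoforms and lists were chosen with earlier results of these data known. Marker lists without a value in the text (nerve and Schwann, lymphocyte, fibroblast, mesothelial) were used only in the 100 pairs. The number of reads limits precision, and all intervals and limits cover counting or sample spread only. No 2 samples of a depot had identical counts.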

Additional observations from a re-analysis of the deposited data

Results flagged for a closer look

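Of 25 measures, an isoform's RPKM in the 6 samples of a depot, 6 had a sample further from the others than Dixon's 95% limit, where chance gives about 1 in 20. In eWAT, Adcy7 was 19.2 RPKM in sample 15, which also had the most macrophage marker RPKM, and Adcy6 was 12.02 in the same sample, the lowest of its depot. Adcy4 was 7.65 in eWAT sample 8 and 5.47 in BAT sample 11, each the sample of its depot with the most endothelial marker RPKM. Adcy2 was 0.510 in BAT sample 12, which had the most skeletal muscle marker RPKM. Adcy10 was 0.230 in iWAT sample 7.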

How the results depend on the processing

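The number of isoforms that passed was 5 in iWAT against BAT (4 to 7 under the alternatives) and 6 in eWAT against BAT (5 to 9). Under the alternatives, 42.1% to 70.7% and 47.7% to 80.4% of all genes passed in these 2 comparisons. Each low end came from the fit without the filter on low counts. Between the white depots the number of isoforms was 5. It was 3 without TMM factors, with limma at either pseudocount (0.1 or 1) or with the replicate block. The eWAT transcript of highest RPKM also gave 3. In these settings 45.6% to 60.3% of all genes passed. Without the length offset it was 2, beside 25.6% of genes. When 1 sample was left out it was 3 to 6, beside 49% to 53.5% of genes. It reached 3 without iWAT sample 7, iWAT sample 15 or eWAT sample 11, and 6 without iWAT sample 14. In BAT, 7 isoforms reached 0.5 RPKM.

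Differences that turned direction had not passed in the main fit, except that of Adcy9 between the white depots. That of Adcy6 in iWAT against BAT did pass with upper-quartile factors (-0.30, edgeR adjusted p = 0.0223). Without TMM factors, with limma at 0.1 and with limma at 1, in that order, Adcy6 in iWAT against BAT was 0.0845, 0.0834 and 0.0804, Adcy4 in eWAT against BAT was 0.43, 0.39 and 0.29, Adcy9 in iWAT against eWAT was -0.0474, -0.0740 and -0.0473, and Adcy10 in iWAT against eWAT was -0.0645, -0.0235 and -0.00654. None of these settings applies TMM factors.

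Title numbers recur between depots (4, 4 and 5 pairs), but same-numbered samples did not deviate together (mean correlation 0.06, -0.05 and -0.13). With the number as a replicate block, 5 isoforms passed in iWAT against BAT, 5 in eWAT against BAT and 3 in iWAT against eWAT. Of all genes, 59.3%, 67.6% and 45.6% passed in that setting. Adcy7 in eWAT against BAT was then 1.05 (adjusted p = 0.232), and Adcy5 and Adcy9 were not called between the white depots. Depth limits Adcy1, Adcy2 and Adcy8, which were tested only without the filter on low counts. Their edgeR adjusted p-values were then 0.589, 0.00459 and 0.526 in iWAT against BAT, and 0.0373, 0.000805 and 3.58e-05 in eWAT against BAT, which brought that number to 9 of 10, beside 47.7% of genes. Between the white depots they were 0.0206, 1 and 0.000224. These rest on the few reads given above, most of those of Adcy2 in BAT from sample 12.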
